A study of Mus musculus with 12 samples.

Results

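The 9 genes described here are Klf1, Epor, Car1, Car2, Rhag and the adult globin genes Hba-a1, Hba-a2, Hbb-bs and Hbb-bt. They were chosen by name as genes of the red cell lineage, and all 9 were found by symbol among the 55335 genes of the count table. All 9 also passed the filter on low counts that left 18234 genes for testing. Red cells form when a stem cell descendant becomes committed under GATA1 and KLF1, the latter a zinc finger factor that binds CACCC sequences and activates the beta globin gene. The committed cell then depends on erythropoietin, which signals through the receptor encoded by Epor, and fills with haemoglobin, a tetramer of 2 alpha and 2 beta chains. A haematopoietic stem cell (HSC) precedes that commitment.

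The study asked what the nuclear m6A reader YTHDC1 does in HSCs, by RNA-seq of polyadenylated RNA from HSCs sorted from mouse bone marrow of C57B6 background. Ythdc1Δ/Δ denotes Ythdc1 fl/fl Mx1-Cre mice and Ythdc1+/+ denotes control mice that carry Mx1-Cre as well, and both had been injected with pIpC, so an interferon response and the Cre are common to both groups. Mx1-Cre is induced by interferon and is active in blood cells at large as well as in cells of other tissues, so the deletion is not limited to HSCs. Ythdc1Δ/Δ was sequenced as the samples KO176, KO177 and KO209 and Ythdc1+/+ as WT178, WT180 and WT207, with 2 libraries of each and 12 in all, from donors given in the methods as 8 weeks old. Nothing in the labels ties a number to 1 mouse or to a pool, so the spread behind the p-values may be technical.

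Each library held between 20809936 and 24563170 counts, and the 2 libraries of a number were summed, giving 3 samples per genotype. Levels are given as CPM, the counts of a gene scaled to the same total in every sample. Transcripts of the targeted gene Ythdc1 stood at 51.2, 67.9 and 75.0 CPM in KO176, KO177 and KO209 and at 75.2, 72.8 and 97.8 CPM in WT178, WT180 and WT207, with overlap between genotypes. Exons that the deletion leaves in place were counted too, so the level does not check the genotype labels. The gate removed lineage-positive cells, red cells included. Of the 11 erythroblast markers looked up, none was at 0, but Slc4a1 and Epb42, which encode the anion exchanger and a protein bound to it under the red cell membrane, each stayed at or under 1.15 CPM in every sample. Levels differed widely within the list, with Hemgn at 34.4 to 66.8 CPM and Hba-a1 at 5.77 to 27.2 CPM. In bulk libraries fewer cells of a type and less RNA per cell cannot be told apart.

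The globin genes come in near copies, and this limits what a short read can tell. Hba-a1 (chr11:32283511-32284465, plus strand) and Hba-a2 (chr11:32296489-32297298, plus strand) have coding sequences of 426 bases that match at 425. Hbb-bs (chr7:103826534-103828096, minus strand) and Hbb-bt (chr7:103812524-103813996, minus strand) have coding sequences of 441 bases that match at 440. Positions are on mm10 (GRCm38), and the sequences are those of GENCODE transcripts on the same build. The stretches around the single differing base are shown because they hold the whole coding difference between the members of a pair. Positions count from 1 at the A of the start codon, the differing base is in capitals, and the differences are C381T from Hba-a1 to Hba-a2 and C417T from Hbb-bs to Hbb-bt.
Hba-a1: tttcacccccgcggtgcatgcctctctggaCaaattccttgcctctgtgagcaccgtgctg
Hba-a2: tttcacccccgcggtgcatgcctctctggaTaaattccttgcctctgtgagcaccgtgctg
Hbb-bs: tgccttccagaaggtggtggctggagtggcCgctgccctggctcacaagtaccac
Hbb-bt: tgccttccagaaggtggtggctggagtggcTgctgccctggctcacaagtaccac

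Of all 100-base windows of the Hba-a1 mRNA, 56.5% occurred letter for letter in Hba-a2, and 74.5% of those of Hba-a2 occurred in Hba-a1. The shares were 62.6% for Hbb-bs and 54.8% for Hbb-bt, each against the other beta gene. Fragments that map equally well to both copies were left out under the counting settings in the file header, so the counts of the 4 globin genes rest on the parts that differ, and the order of levels within a pair is uncertain. For this reason the sums of the alpha and of the beta genes are given beside the single genes. Klf1, Epor and Car2 shared no 100-base window with another gene, nor did Rhag, and Car1 shared 2.92% of its windows with Gm5843. None of the 9 genes had exons that overlap those of another gene. Klf1 lies at chr8:84901928-84905291 and Rhag at chr17:40811126-40840754 on the plus strand, Epor at chr9:21958897-21963506 on the minus strand, and Car1 (chr3:14766216-14808368, minus strand) and Car2 (chr3:14886273-14900770, plus strand) lie close together on chromosome 3.

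Levels between genes were compared per length, as TPM, the counts per base of exon scaled to the same total in every sample. For the globins the whole exon length was used, although fragments shared between copies were left out. Their TPM therefore understates them against the other genes. Car2, which encodes the fast carbonic anhydrase of red cells and of many other cells, stood far above the rest at 1477 TPM on average over the 6 samples, in position 67 of the 18234 tested genes. Its lowest sample, at 695 TPM, lay above the highest of any other member. Hba-a1 followed at 48.8 TPM, with a range of 19.0 to 90.9 TPM, and Car1, the carbonic anhydrase that is abundant in mature red cells, at 39.4 TPM, with a range of 24.1 to 53.3 TPM. Hbb-bt and Klf1 stood at 21.9 and 21.3 TPM, Hba-a2 and Epor at 12.6 and 11.8 TPM and Hbb-bs at 9.74 TPM. Each of these neighbours in the order overlapped the next in its range, so the order between neighbours is not fixed by these samples. Some genes further apart did separate. The lowest samples of Hba-a1 and of Car1 lay above the highest of Epor, at 14.4 TPM. That of Car1 also lay above the highest of Hbb-bs, at 19.8 TPM. Rhag, the Rh-associated glycoprotein of the red cell membrane, came last at 2.28 TPM, and its highest sample, at 3.34 TPM, lay under the lowest of Hbb-bs, at 3.56 TPM.

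**Figure D1:**
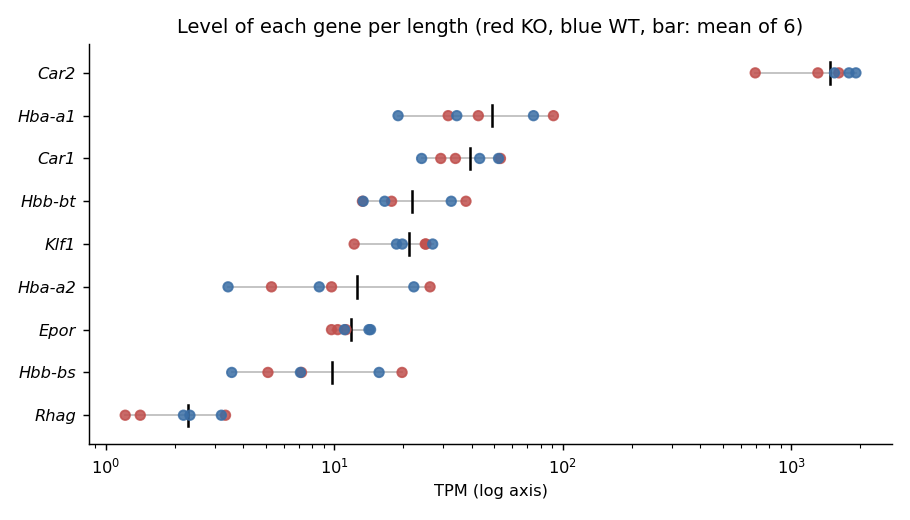
Level of each of the 9 genes in TPM on a log axis, 1 point per sample, red for Ythdc1Δ/Δ and blue for Ythdc1+/+, with the mean of the 6 samples as a black bar. Car2 stands apart at a mean of 1477 TPM, Rhag lies lowest at 2.28 TPM, and the ranges of the 7 genes between them overlap from one to the next. The globins are understated, since fragments shared between copies were left out.

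The comparison between genotypes asked whether loss of YTHDC1 moved any of the 9 genes. None passed an adjusted p of 0.05 in edgeR's quasi-likelihood test with Benjamini-Hochberg adjustment over the 18234 genes, where 0.0877% of tested genes passed as higher and 0.0494% as lower in Ythdc1Δ/Δ. Only Car2 had an unadjusted p under 0.05, as did 9.48% of tested genes, and DESeq2 and limma's voomLmFit likewise called none of the 9. For none did the samples of the genotypes separate, whereas 6.14% of tested genes separated as higher and 9.35% as lower in Ythdc1Δ/Δ. By the rule in the study's methods, a 2-fold change with an unadjusted p of 0.05 or less, 0.85% of tested genes were higher and 1.12% lower, and none of the 9 was among them.

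Car2 showed the largest of these differences relative to its error. It stood at 638, 1193 and 1438 CPM in KO176, KO177 and KO209 and at 1619, 1424 and 1719.6 CPM in WT178, WT180 and WT207. KO176 was the lowest by far, while KO209 lay above WT180, which is why the genotypes overlap. The means were 1089.6 ± 410.1 CPM in Ythdc1Δ/Δ and 1588 ± 150.1 CPM in Ythdc1+/+ (SD, n = 3 each), and the log2 fold change was -0.52 (SE 0.22, adjusted p = 0.484, unadjusted p = 0.0367 in edgeR). Without KO176 it was -0.28 with an adjusted p of 0.773. Without KO209 and WT207, both remaining Ythdc1Δ/Δ samples lay under both Ythdc1+/+ samples, with a log2 fold change of -0.67 and an adjusted p of 0.448, and KO209 stood at 0.836 of the level of WT207. Markers of granulocytes and their precursors summed to 22230 CPM in KO176 and to between 11645 and 14685 CPM in the other 5 samples, and their part in the level of Car2 was not tested.

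Car1, in the same carbonic anhydrase cluster on chromosome 3, did not follow Car2. Car1 stood at 25.2, 15.9 and 13.4 CPM in KO176, KO177 and KO209, and at 20.2, 11.5 and 24.2 CPM in WT178, WT180 and WT207. The highest sample for Car1, KO176, was the lowest for Car2, and the genotypes covered nearly the same span. The log2 fold change of Car1 was 0.052 (SE 0.37, adjusted p = 0.976 in edgeR). It was -0.34 without KO176 and -0.21 without WT180. On the TPM scale Car2 exceeded Car1 13-fold in KO176 and between 36.6-fold and 64.1-fold in the other 5 samples.

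The mean level of Klf1 differed between genotypes by less than the spread within either. It stood at 14.6, 14.4 and 6.88 CPM in KO176, KO177 and KO209 and at 15.4, 11.6 and 10.6 CPM in WT178, WT180 and WT207. KO209 was lower than every other sample, and both of its libraries, at 6.71 and 7.06 CPM, lay under all the other 10. The means were 12 ± 4.41 and 12.5 ± 2.55 CPM (SD, n = 3 each), with a log2 fold change of 0.0058 (SE 0.34, adjusted p = 0.998 in edgeR). That sign has no weight, since it turned in 4 of the 6 fits that left 1 sample out and under 7 of the 14 other alternatives.

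Epor, the erythropoietin receptor, spread least of the 9. Its levels were 7.80, 8.43 and 7.12 CPM in KO176, KO177 and KO209 and 10.5, 10.9 and 8.17 CPM in WT178, WT180 and WT207. WT207 fell among the Ythdc1Δ/Δ samples, and the other Ythdc1+/+ samples lay above all of them. The log2 fold change was -0.29 (SE 0.19, adjusted p = 0.659 in edgeR), and without WT207 it was -0.44. Rhag, at 24 to 79 counts per library, had 2.96, 1.07 and 1.22 CPM in KO176, KO177 and KO209 and 2.80, 2.08 and 1.90 CPM in WT178, WT180 and WT207. Its level in KO176 was the highest of all 6, and the other Ythdc1Δ/Δ samples were the lowest. The log2 fold change was -0.30 (SE 0.42, adjusted p = 0.858 in edgeR), and with a sample left out it ran from -0.98 without KO176 to -0.031 without KO209.

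**Figure D2:**
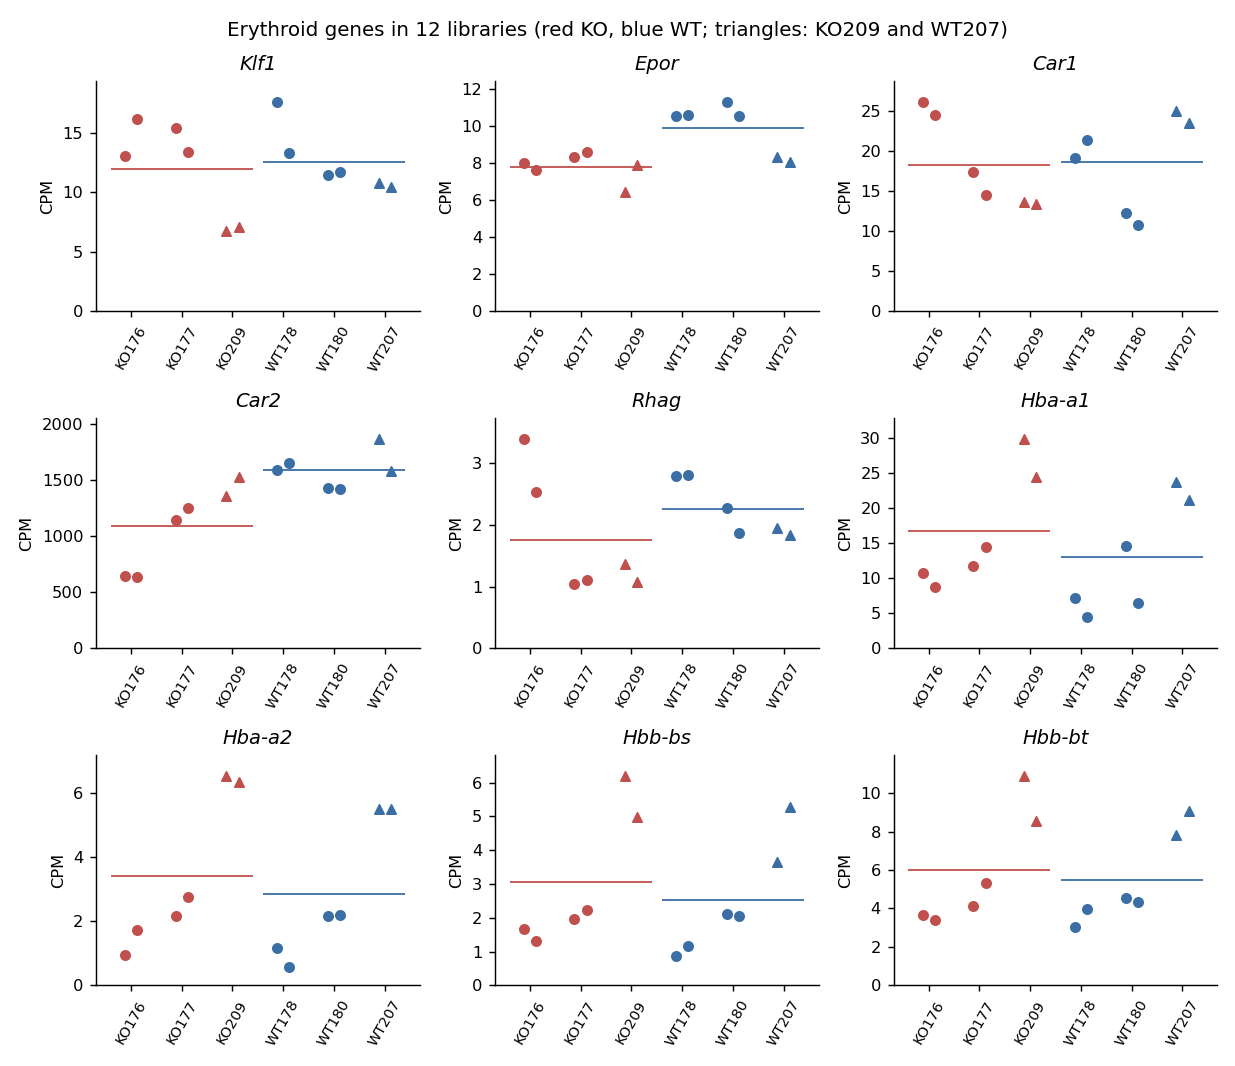
CPM of the 9 genes in each of the 12 libraries, 2 points per sample, red for Ythdc1Δ/Δ and blue for Ythdc1+/+, with triangles for KO209 and WT207 and a line at each genotype's mean. The genotypes overlap in every panel, and in the 4 globin panels the triangles of both colours stand above the circles.

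The 4 adult globin genes divided the samples, but not by genotype. Hba-a1 stood at 9.69, 13.1 and 27.2 CPM in KO176, KO177 and KO209 and at 5.77, 10.6 and 22.4 CPM in WT178, WT180 and WT207. KO209 and WT207 were the highest of their genotypes, and the other 4 samples lay at or under 13.1 CPM. Hba-a2 gave 1.34, 2.45 and 6.44 CPM in KO176, KO177 and KO209 and 0.855, 2.18 and 5.51 CPM in WT178, WT180 and WT207, in the same order within each genotype. Hbb-bs gave 1.49, 2.08 and 5.59 CPM in KO176, KO177 and KO209, and 1.02, 2.08 and 4.47 CPM in WT178, WT180 and WT207. Hbb-bt gave 3.54, 4.72 and 9.75 CPM in KO176, KO177 and KO209, and 3.52, 4.45 and 8.46 CPM in WT178, WT180 and WT207. For each of the 4 genes KO209 was the highest sample and WT207 came next.

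Between genotypes the globins differed by less than the spread within each genotype. The log2 fold change, Ythdc1Δ/Δ against Ythdc1+/+, was 0.39 for Hba-a1 (SE 0.57, adjusted p = 0.868), 0.28 for Hba-a2 (SE 0.78, adjusted p = 0.936), 0.30 for Hbb-bs (SE 0.61, adjusted p = 0.907) and 0.16 for Hbb-bt (SE 0.39, adjusted p = 0.923), all in edgeR. Without KO209 all 4 turned negative, from -0.47 for Hba-a2 to -0.058 for Hba-a1. Without WT207 they were 0.9997 for Hba-a1, 1.12 for Hba-a2, 0.94 for Hbb-bs and 0.58 for Hbb-bt. With both alpha genes summed the log2 fold change was 0.37 (SE 0.63, adjusted p = 0.888), and with both beta genes summed 0.20 (SE 0.48, adjusted p = 0.921). Among the 4 samples other than KO209 and WT207 it lay between 0.12 for Hbb-bt and 0.54 for Hba-a1, and none was called there, and KO209 exceeded WT207 by 1.15-fold to 1.25-fold.

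**Figure D3:**
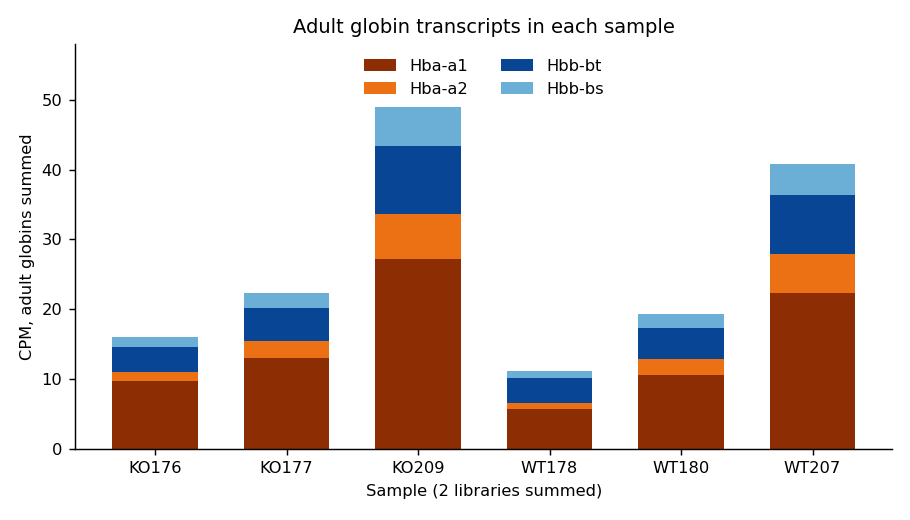
CPM of the 4 adult globin genes stacked for each of the 6 samples, alpha genes in brown and orange and beta genes in dark and light blue. The stack reaches 49.0 CPM in KO209 and 40.8 CPM in WT207 and stays between 11.2 and 22.3 CPM in the other 4 samples.

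Taken as a sum, the adult globins came to 16.1, 22.3 and 49.0 CPM in KO176, KO177 and KO209 and to 11.2, 19.3 and 40.8 CPM in WT178, WT180 and WT207. The sum rested on 470 to 2250 counts per sample, at most 0.0049% of all counts. Alpha exceeded beta transcripts in each sample, by 2.19-fold, 2.28-fold and 2.19-fold in KO176, KO177 and KO209 and by 1.46-fold, 1.96-fold and 2.16-fold in WT178, WT180 and WT207. That ratio is one of counts that could be placed and not of molecules, since different parts of the alpha and beta genes are shared with their copies. Hba-a1 held between 80.3% and 87.8% of the alpha counts and Hbb-bt between 63.5% and 77.5% of the beta counts.

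The samples with the high globin levels, KO209 and WT207, are those with the 2 highest sample numbers, 1 of each genotype. The labels give the numbers no meaning and do not name a batch. A term for these samples against the other 4, tested beside genotype, was added after the values had been seen. It called all 4 globins higher in KO209 and WT207, with log2 fold changes of 1.21 for Hba-a1 (SE 0.21, adjusted p = 0.0478), 1.65 for Hba-a2 (SE 0.28, adjusted p = 0.0458), 1.44 for Hbb-bs (SE 0.24, adjusted p = 0.0329) and 1.02 for Hbb-bt (SE 0.17, adjusted p = 0.0316) in edgeR. Over all tested genes 0.154% were called higher in these samples and 0.225% lower. KO209 and WT207 did not overlap with the other 4 samples for any of the 4 globins, and 23.5% of all tested genes separated in that direction. None of the other 5 genes was called, and of them Klf1 alone separated, as lower in KO209 and WT207, which 6.39% of tested genes did.

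These calls rest on single samples. Without KO209, and likewise without WT207, which leaves 1 sample on that side that is assumed to vary like the rest, edgeR called 0 of the 9 genes, with 5 at an unadjusted p under 0.05 in each fit. Of all tested genes 5.11% had such a p without KO209 and 15.6% without WT207. Without KO176 the 2 beta genes were still called, and without WT180 Hbb-bs and Hba-a1. The log2 fold changes kept their size, from 0.96 to 1.93 over the 4 genes in all 6 fits that left a sample out. With RLE scaling Hba-a1 missed the threshold (adjusted p = 0.0513), and with edgeR's legacy option Hba-a2 did (adjusted p = 0.0678). DESeq2 called 5 of the 9 genes, the 4 globins and Klf1. The summed alpha genes gave 1.29 (SE 0.23, adjusted p = 0.0640) and the summed beta genes 1.16 (SE 0.17, adjusted p = 0.0187) in edgeR.

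Klf1 and Epor ran the other way. The log2 fold change of KO209 and WT207 against the other 4 samples was -0.83 for Klf1 (SE 0.21, adjusted p = 0.106) and -0.43 for Epor (SE 0.14, adjusted p = 0.160) in edgeR, and -0.43 for Klf1 without KO209. It was -0.67 for Rhag (SE 0.42, adjusted p = 0.422), -0.10 for Car1 (SE 0.51, adjusted p = 0.939) and 0.28 for Car2 (SE 0.21, adjusted p = 0.505). Scaling by total counts without TMM moved the median of all genes for this term to 0.15, and the sign of Car1 turned with it, while the globins stayed higher. Across the 12 libraries, which are 6 pairs, Pearson's r of log2 CPM lay between 0.86 and 0.97 for the 6 pairs of globin genes and between -0.89 and -0.73 for Klf1 with each globin. Car1 with the globins gave -0.27 to -0.11, and Car2 gave 0.20 to 0.45.

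**Figure D4:**
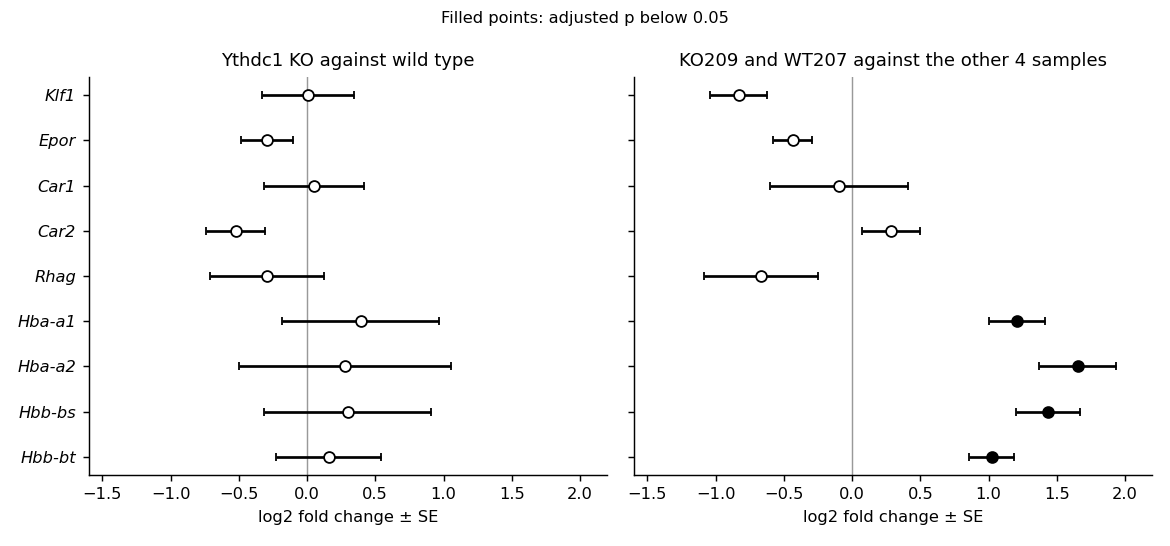
Log2 fold change with its standard error for the 9 genes, on the left Ythdc1Δ/Δ against Ythdc1+/+ and on the right KO209 and WT207 against the other 4 samples, with filled points for an adjusted p below 0.05. No point is filled on the left, where values run from -0.52 to 0.39, and the 4 globins are filled on the right, at 1.02 to 1.65.

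Other genes of late red cell formation were read for the same split. Alas2, the erythroid enzyme that starts haem synthesis, stood at 0.341, 0.601 and 2.11 CPM in KO176, KO177 and KO209 and at 0.261, 0.208 and 1.24 CPM in WT178, WT180 and WT207. It was called higher in KO209 and WT207, with a log2 fold change of 2.09 (adjusted p = 0.0151 in edgeR), and missed the threshold without KO209 (adjusted p = 0.524), without WT180 (adjusted p = 0.0527) and without WT207 (adjusted p = 0.124). Slc4a1, the anion exchanger of the red cell membrane, gave 2.15 (adjusted p = 0.0580). Gata1, the master factor of erythroid and megakaryocytic cells, ran the other way at -1.03 (adjusted p = 0.0067), with 26.6 CPM in KO209 and 33.1 CPM in WT207 against 49.4 to 62.2 CPM in the other 4 samples. Mfsd2b, the sphingosine-1-phosphate exporter of red cells and platelets, gave -1.22 (adjusted p = 0.0151). Gata1 missed the threshold without KO209 (adjusted p = 0.284) and without WT207 (adjusted p = 0.0555), and Mfsd2b without KO209 (adjusted p = 0.524). Hemgn, a nuclear protein of erythroid precursors, gave 0.17 (adjusted p = 0.577). Alas2, Gata1 and Mfsd2b were the only ones that edgeR called for these samples among the 114 tested genes of the erythroid lists below.

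The promoters of the members were looked up in RefSeq (GRCm38.p6), which held 7 of the 9, all but Car1 and Car2. Those of Hba-a2 and Hbb-bt, 1 alpha and 1 beta gene, are shown. Their transcripts moved together across the 12 libraries (r = 0.89), as did those of all 6 pairs of globin genes (r = 0.86 to 0.97). Each stretch ends before the first annotated exon, at chr11:32296389-32296488 on the plus strand for Hba-a2 and at chr7:103813997-103814096 on the minus strand for Hbb-bt. Capitals mark 3 motifs on either strand: the CACCC motif, the CCAAT box and the TATAA box.
Hba-a2: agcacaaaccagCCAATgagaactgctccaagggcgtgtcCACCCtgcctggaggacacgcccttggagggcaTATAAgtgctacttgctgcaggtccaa
Hbb-bt: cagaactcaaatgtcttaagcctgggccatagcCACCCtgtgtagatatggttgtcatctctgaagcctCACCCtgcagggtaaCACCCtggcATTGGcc

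CACCC, the core of the KLF1 site, lies 63 bases before the start site of Hba-a2, with the CCAAT box 91 bases and the TATAA box 30 bases before it. In Hbb-bt the 3 copies of CACCC lie 140, 104 and 89 bases before the start site. A match to CCAAT on the other strand lies 80 bases before it. The stretch of Hbb-bt stops 74 bases before that site, where an annotated exon begins, so matches nearer to the site are not shown. The TATAA match of Hbb-bt lies outside the stretch. Within 250 bases before the start site CACCC occurred on either strand in 7 of the 7 promoters, against 52.0% of 32851 mouse promoters. CCAAT occurred in 6 of 7, all but Epor, against 33.9%. TATAA occurred in the 4 globin promoters alone, against 22.8%, and AGATAA, a form of the GATA site, in those of Epor and Hbb-bs, against 9.99%. The 250 bases before Hba-a1 and Hba-a2 matched at 247 of the 247 bases that could be laid together, so the alpha genes count as 1 promoter here. These are matches of letters and not sites of binding.

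The rest of the red cell programme was read from 9 lists, with 134 genes matched and 114 tested. None of the 114 was called between genotypes in edgeR, while 7 had an unadjusted p under 0.05 as higher and 10 as lower in Ythdc1Δ/Δ. Of all tested genes 4.28% had such a p as higher and 5.2% as lower. The median log2 fold change was -0.05 over the 114 genes and -0.0062 over all tested genes. By the 2-fold rule 3 of the 114 passed, Sox6, Socs2 and Fn3k, while 0.85% of all tested genes passed it as higher and 1.12% as lower. The smallest adjusted p of the 114 was 0.193, for Sox6.

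**Figure D5:**
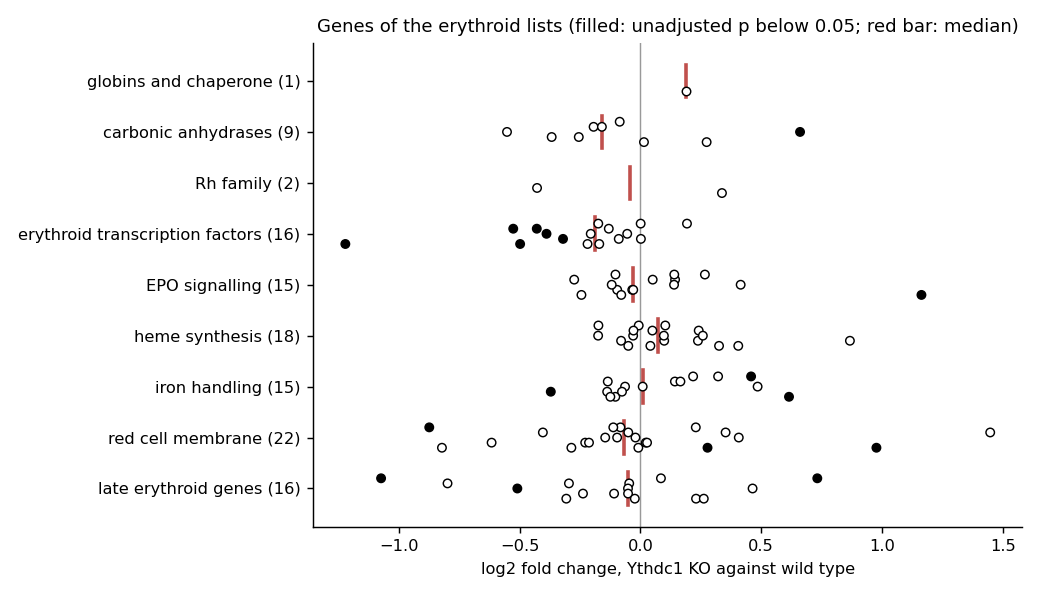
Log2 fold change between genotypes for each tested gene of the 9 erythroid lists, the number tested in brackets, with filled points for an unadjusted p below 0.05 and a red bar at the list's median. No gene passed the adjusted threshold, and the transcription factor list has its median at -0.19 with 6 filled points, all under 0.

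Of 16 erythroid transcription factors 13 were lower and 3 higher, with a median of -0.19, and 6 had an unadjusted p under 0.05, all lower. Over all tested genes 51.1% were lower, and 5.2% had an unadjusted p under 0.05 as lower. Sox6, which takes part in the silencing of embryonic globins, had 9.86, 19.9 and 26.3 CPM in KO176, KO177 and KO209 against 43.8, 43.6 and 44.6 CPM in WT178, WT180 and WT207. Every Ythdc1Δ/Δ sample lay under every Ythdc1+/+ sample, with a log2 fold change of -1.22 (SE 0.25, adjusted p = 0.193). Tal1 gave -0.43 (adjusted p = 0.317), Gfi1b -0.53 (adjusted p = 0.399) and Ldb1 -0.50 (adjusted p = 0.456), all in edgeR. TAL1 and LDB1 join GATA1 in 1 complex on erythroid genes, and GFI1B is a transcriptional repressor in the same cells. All 3 also act in HSCs or megakaryocytic cells.

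In the other lists the direction was mixed. Of 15 tested genes of erythropoietin signalling 7 were higher and 8 lower, with Socs2, an inhibitor of cytokine signalling, at 1.16 (adjusted p = 0.312) and Kit, the stem cell factor receptor, at -0.27 (adjusted p = 0.641). Of 18 genes of haem synthesis 11 were higher and 7 lower, and none had an unadjusted p under 0.05. Iron handling gave 8 higher and 7 lower of 15, with the transferrin receptors in opposite directions, Tfrc at 0.61 (adjusted p = 0.338) and Tfr2 at -0.37 (adjusted p = 0.429), and the ferrireductase Steap3 at 0.46 (adjusted p = 0.362). Of 22 red cell membrane genes 8 were higher and 14 lower, among them Tmod1, which caps actin filaments, at -0.87 (adjusted p = 0.291) and the nucleoside transporter Slc29a1 at 0.28 (adjusted p = 0.475). Late erythroid genes gave 5 higher and 11 lower of 16, with the biliverdin reductase Blvrb at -0.51 (adjusted p = 0.220) and Fn3k at -1.07 (adjusted p = 0.332), and Trim58 at 0.73 (adjusted p = 0.365).

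Relatives of the 9 genes were mostly low. The embryonic globins Hbb-bh0 and Hba-x had no read in the 273989355 counts of the 12 libraries, which allows up to 0.0109 CPM over all libraries, for counting error only. Hbb-bh1 had 2 counts, Hbb-bh3 2, Hbb-y 10 and Hbb-bh2 11, all too few to be tested. Among the other carbonic anhydrases 9 of 14 were tested, with 3 higher and 6 lower in Ythdc1Δ/Δ, and Car12, a membrane-bound form, had the smallest p (log2 fold change 0.66, adjusted p = 0.201). Rhd, which joins RHAG in the red cell membrane, stood between 0.901 and 1.98 CPM, with a log2 fold change of 0.34 (adjusted p = 0.769). The gene Ahsp, for the alpha globin chaperone, was not analysed here, as its symbol had no match.

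Marker lists of other cells moved with the samples, and their part in the results above was not tested. The summed level of the 11 erythroblast markers, which include the 4 globins, was 55.9 to 111.2 CPM in Ythdc1Δ/Δ and 72.1 to 113.7 CPM in Ythdc1+/+. It was 111.2 and 113.7 CPM in KO209 and WT207 against 55.9 to 78.5 CPM in the other 4 samples. Without the 4 globins, whose split prompted that reading, the remaining 7 markers summed to 62.2 and 72.9 CPM in KO209 and WT207 and to 39.8 to 67.3 CPM in the other 4, with overlap. Most of that sum was Hemgn, at 34.4 to 66.8 CPM. With Hemgn left out as well, the sum was 6.60 CPM in KO209 and 6.07 CPM in WT207. It was 3.29 to 5.41 CPM in the other 4 samples, without overlap. Mast cell and basophil markers, which share GATA factors with red cells, summed to 216.5 to 241.4 CPM in KO209 and WT207 and to 312.7 to 369.5 CPM in the others. That drop was not particular to this list. T and NK cell markers summed to 511.9 to 619.6 CPM in KO209 and WT207 and to 637.9 to 738.7 CPM in the others. B cell markers summed to 131.9 to 132.5 against 134.0 to 160.3 CPM. Between genotypes, megakaryocyte and platelet markers summed to 200.9 to 309.9 CPM in Ythdc1Δ/Δ and 325.3 to 439.2 CPM in Ythdc1+/+, and the 10 HSC gate markers to 790.5 to 865.1 against 1024 to 1156 CPM. Marrow macrophage markers, which mark the nurse cells of erythroblast islands, summed to 73.7 to 78.1 CPM in Ythdc1Δ/Δ and 50.4 to 67.7 CPM in Ythdc1+/+. None of these lists had a marker without a read.

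Stroma and endothelium markers summed to 123.5 to 146.7 CPM in Ythdc1Δ/Δ and 101.0 to 112.9 CPM in Ythdc1+/+. Most of that sum was Pecam1, at 75.0 to 92.0 CPM with overlap between genotypes, and 10 of the 11 tested markers were higher in Ythdc1Δ/Δ. The list held the 3 genes of the marker lists that edgeR called between genotypes, Lepr, Adipoq and Sparc, named after their values had been seen. Over all tested genes 48.9% were higher in Ythdc1Δ/Δ, 6.14% separated as higher and 0.0877% were called higher. Lepr, the leptin receptor of marrow stroma, stood at 1.56, 1.74 and 1.89 CPM in KO176, KO177 and KO209 and at 0.143, 0.291 and 0.451 CPM in WT178, WT180 and WT207 (log2 fold change 2.58, adjusted p = 0.0218). Adipoq gave 3.16 (adjusted p = 0.0218) and Sparc 1.78 (adjusted p = 0.0456), and for each of the 3 genes the genotypes did not overlap. All 3 missed the threshold without KO177, WT178, WT180 or WT207, each left out alone, with adjusted p for Lepr of 0.0703, 0.194, 0.195 and 0.0915, for Adipoq of 0.0664, 0.219, 0.195 and 0.0915 and for Sparc of 0.174, 0.317, 0.285 and 0.112. Sums of the granulocyte, B cell and T and NK cell lists overlapped between genotypes, yet all 12 granulocyte markers and 11 of 12 B cell markers were higher in Ythdc1Δ/Δ, none of them called. The B cell sum was mostly Cd79b, at 87.1 to 108.3 CPM, while 5 of the 12 B cell markers separated as higher, among them Cd79a at 13.3 to 16.3 against 6.77 to 8.53 CPM (log2 fold change 0.9963, adjusted p = 0.0622). Of the mast cell and basophil list, Cpa3 was called lower in KO209 and WT207 (log2 fold change -1.11, adjusted p = 0.0067 in edgeR), and it missed the threshold without KO209 (adjusted p = 0.258). The part of these cells in the levels of the 9 genes was not tested.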

How the data were processed

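RNA-seq libraries were made from sorted HSCs with an ultra-low-input cDNA kit, without molecular identifiers. Per the methods and the file header, the authors mapped reads to mm10 with Hisat2 and counted fragments over exons of GENCODE genes with featureCounts (version 2.0.1), without regard to strand and without multi-mapping reads. The deposited values are raw counts per gene, and no value column was left out. TPM values were computed here from these counts and the exon length given in the table, and CPM from the library totals.

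The counts of both libraries of a sample number were summed. Genes with enough counts (filterByExpr, minimum count 10, minimum total 15) were scaled by TMM and tested in edgeR (version 4.0.16, R 4.3.3) with robust quasi-likelihood fits, with Benjamini-Hochberg adjustment and a threshold of 0.05. DESeq2 (version 1.42.0) and limma's voomLmFit (version 3.58.1) served as alternatives, next to other scalings, filters, the libraries taken separately and samples left out. The script was tested on simulated counts. The SE is the log2 fold change divided by the square root of F.

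The 9 genes and all gene lists were chosen with earlier results of these data known. From each of the 9 erythroid lists the text names genes past the threshold and up to 4 of those with the smallest p; 1 item is not reported here. Epb42, Slc4a1, Hemgn, Rhd, Kit and Hbb-y are named beside this rule as markers or relatives, and genes of the other marker lists after their values had been seen. Likeness between genes is Pearson's r of log2 CPM (prior count 2) over the 12 libraries, for members with a mean of at least 1 CPM.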

Additional observations from a re-analysis of the deposited data

How the results depend on the processing

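The count of the 9 genes called between genotypes was 0 under all 20 alternatives. The numbers of all genes called higher and lower moved from 16 and 9 to 10 and 6 with upper quartile scaling, 10 and 5 with total counts and with the legacy option, 28 and 45 with no filter, 3 and 0 with a minimum count of 50, 347 and 404 with 12 separate libraries, 35 and 50 with a term for KO209 and WT207, 16 and 4 without KO209 and WT207, 84 and 133 in DESeq2, and 42 and 75 in voomLmFit, and they ran from 1 to 30 and from 0 to 51 with a sample left out. The genotypes share no sample number, only the digit after it, and with that digit as a replicate block the counts were 328 and 389, with no member called. Klf1 turned to -0.014 (upper quartile), -0.064 (total counts), -0.0081 (minimum count of 50), -0.0046 (12 libraries), -0.0029 (replicate block), -0.067 (that term) and -0.088 (voomLmFit), and Car1 to -0.029 with total counts. With a sample left out Klf1 ran from -0.22 to 0.33, Car1 from -0.34 to 0.28, Hba-a1 from -0.058 to 0.9997, Hba-a2 from -0.47 to 1.12, Hbb-bs from -0.38 to 0.94 and Hbb-bt from -0.29 to 0.58. For the term that sets KO209 and WT207 apart, chosen after seeing the data, all genes called went from 28 and 41 to 140 higher with total counts, 1460 and 1395 with 12 libraries, 272 and 518 in DESeq2, and from 2 to 73 and 0 to 100 with a sample left out. Members called for that term went from 4 to 6 with 12 libraries and 5 in DESeq2, and ran from 0 to 4 with a sample left out. Car1 turned to 0.044 with total counts and ran from -0.83 to 0.53 with a sample left out. The cause was not tested. At 12 to 153 counts per library Hba-a2 is among the members that depth limits most.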

Other observations

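The genes whose levels ran closest to those of each member across the 12 libraries were looked up as a description, with 2 libraries of each sample number among the 12 points. Hbb-bs and Hbb-bt were each other's nearest gene (r = 0.97), and Hba-a2 was the nearest to Hba-a1 (r = 0.91), before Cobll1 (r = 0.91) and Bcam (r = 0.90), a gene of the red cell membrane list. Hba-a2 itself ran closest to Taok2 (r = 0.96), Dennd4b (r = 0.95) and Aldh2 (r = 0.94), and its r with Hba-a1 was lower. Dennd4b (r = 0.94) and Spata13 (r = 0.95) followed Hbb-bs, and Spata13 (r = 0.94) and Atxn7 (r = 0.94) followed Hbb-bt. Of the genes nearest to Hba-a2, Hbb-bs and Hbb-bt, those other than globins are in none of the erythroid lists.

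Car2 ran with Anxa4 (r = 0.99), Fam210b (r = 0.99) and Tspan32 (r = 0.98), and Epor with Rnf114 (r = 0.97), Gp5 (r = 0.94) and Clu (r = 0.93), of which Gp5 encodes a platelet glycoprotein. Klf1 ran with H2afj, Nol12 and Pgp (r = 0.91 each) and Rhag with Selenom (r = 0.91), Mrpl55 (r = 0.86) and Cebpzos (r = 0.84). The nearest to Car1 were Ighv5-6 (r = 0.89), Gm3571 (r = 0.88) and Olfm4 (r = 0.88). Car2 held 87.4% of the carbonic anhydrase transcripts (TPM) in KO176 and between 93.2% and 94.5% in the other 5 samples.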
